A study of Homo sapiens with 60 samples.

Results

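The dose trend was followed in MDA-MB-231, a long-established cell line from a triple-negative breast cancer, 6 h after BAY2506856 was added at 100, 300 or 1000 nM. Its members are the 9 treated libraries of that time, 3 per dose, out of 60 libraries in the series, and they were chosen by the dose and time in the sample labels. For each gene a straight line was fitted to its level against the log10 of the dose, without DMSO, so that the slope measures how the transcript differs between treated cells that received less and more compound. At each of 1, 3, 6 and 24 h the series holds 6 libraries of vehicle (DMSO) and 3 per dose, and the text on its design gives a harvest at 24 h alone. All groups are the unmodified line, no label names the compound's target, and none says whether replicates came from separate cultures. The p-values therefore reflect the spread among these libraries and nothing wider.

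YAP1 and TAZ are coactivators that enter the nucleus when cells spread or lose contact and switch on growth and adhesion genes through the TEAD factors, which bind DNA at the letters GGAATG. Genes such as CYR61, CTGF and ANKRD1 are widely read as their output. RHOB is a small GTPase that acts on vesicle traffic and the actin cytoskeleton. These are background facts about the genes and are not results on the compound.

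The 9 libraries held 9.31 to 48.8 M reads at 100 nM, 7.34 to 12.9 M at 300 nM and 7.80 to 13.6 M at 1000 nM, against 4.80 to 24.8 M in the 6 DMSO libraries of 6 h. One treated library, replicate 1 of 300 nM, stood apart: an index of 14 pseudogenes was 2.41 in it on the log2 scale, and it ran between -3.43 and -2.71 in the other 8. It shares this with replicate 5 of DMSO at 6 h, where the index was 1.66, and with 11 other libraries of the series, which are called the second library type here. The counts of called genes and the leading slopes are therefore given with and without replicate 1 of 300 nM. As 300 nM lies near the middle of the log10 scale, that library can change the spread but hardly a slope. Of 8 markers of the line, 7 averaged at least 1 FPKM (a transcript's fragments scaled to its length and to the library's reads) over the 9 libraries, with VIM, CD44, AXL and CAV1 among them and SPARC the one below. The 8 markers summed to 1464 to 1503 FPKM at 100 nM, 1359 to 1471 at 300 nM and 1434 to 1469 at 1000 nM. Markers of other cell types were present in part. Of 8 luminal epithelial markers, 3 averaged at least 1 FPKM (GATA3, EPCAM and KRT18), and the list summed to 128 to 137 FPKM at 100 nM, 111 to 136 at 300 nM and 130 to 138 at 1000 nM. Of 6 fibroblast markers, 3 did so (COL1A1, COL1A2 and PDGFRB), with sums of 5.95 to 6.35 FPKM at 100 nM, 3.45 to 6.24 at 300 nM and 5.69 to 6.38 at 1000 nM. Of 5 leukocyte markers in the table, CD14 did so, and the 5 summed to 0.563 to 2.56 FPKM over the 9 libraries. No endothelial or erythroid marker averaged 1 FPKM. Among the listed markers, ESR1 (luminal), THY1 (fibroblast), CD3E (T cell) and CDH5 (endothelial) were at 0 in all 9, and the part of the other markers in the slopes was not tested. In bulk RNA, fewer cells of a type and less RNA per cell cannot be told apart.

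The slopes were small. The genes with the smallest p-values were 3 known YAP1/TAZ targets and DKK1, with negative slopes, and on the positive side RHOB. The slope is the fitted log2 difference between 1000 and 100 nM, that is per 10-fold dose. Across 13870 genes with at least 1 FPKM in at least 3 of the 9 libraries, its median was -0.0025, with -0.36 at the 2.5th percentile and 0.26 at its counterpart on the upper side. limma called 0 genes at a Benjamini-Hochberg adjusted p under 0.05 (0%), and the smallest adjusted p was 0.743. At an unadjusted p under 0.05 there were 154 genes with a negative slope (1.11%) and 64 with a positive one (0.461%). Together they made 1.57% of the genes tested, less than a threshold of 0.05 gives where no gene has a trend. Also with limma's voom on the recovered reads 0 were called, with 209 (1.51%) at an unadjusted p under 0.05. Without replicate 1 of 300 nM, 892 genes (6.47%) had an unadjusted p under 0.05 and again 0 were called, with a smallest adjusted limma p of 0.0609. The median standard error of a slope was then 0.082 in place of 0.145.

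Settings that estimate the spread from more libraries did call genes. With 1 mean per group over all 60 libraries, 3 genes fell with dose (0.0216% of those tested): CYR61, CTGF and DKK1. Adding terms for the library types, an alternative chosen after the data were seen, gave 6 called genes (0.0433%), with ANKRD1 among those falling and RHOB rising. Using only the 41 libraries of the first type, likewise chosen afterwards, gave 9 (0.0649%), with F3, FRMD6 and BYSL falling besides. The slope of CYR61 was -0.70 in all 3 settings and in the 9 libraries alone. This likeness follows from the design and is no support: the settings share the treated libraries of 6 h and differ mainly in the spread.

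**Figure D1:**
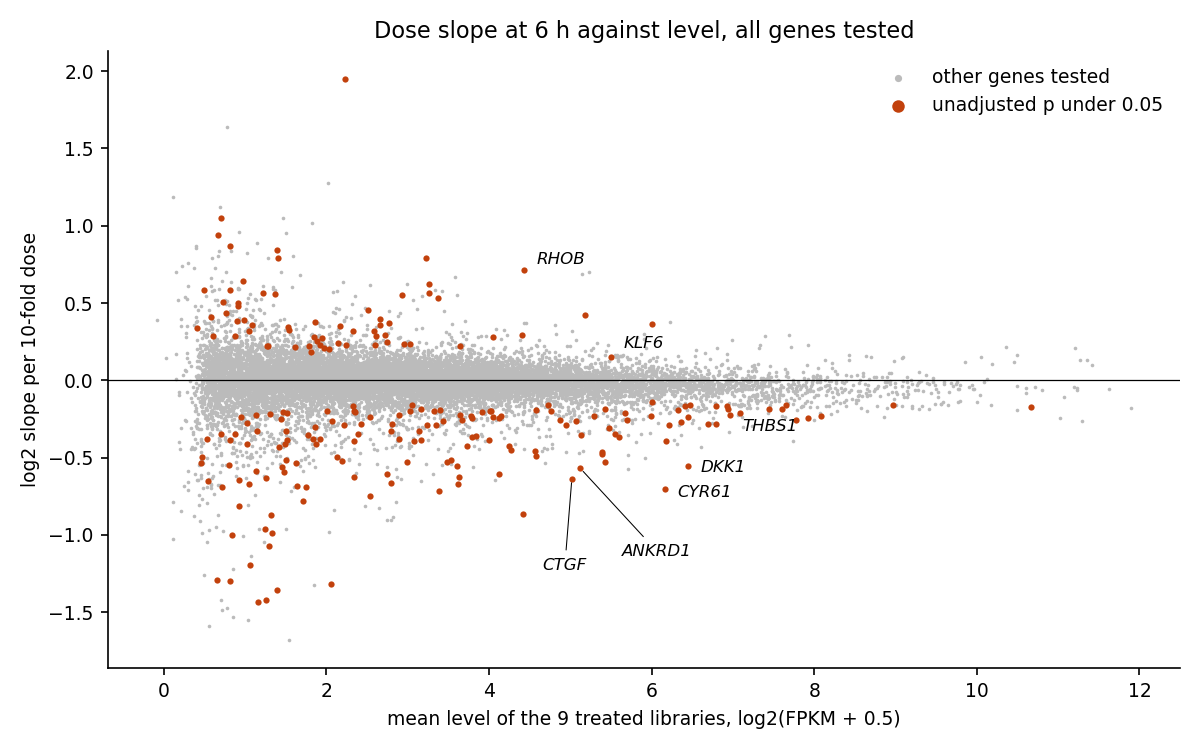
Slope per 10-fold dose at 6 h (log2, vertical axis) against the mean level of the 9 treated libraries (log2 of FPKM + 0.5, horizontal axis) for the 13870 genes tested, with the 218 genes at an unadjusted p under 0.05 in orange. Among the 5394 genes averaging at least 10 FPKM, 72 of these have a negative slope and 7 a positive one. Together they are fewer than a threshold of 0.05 gives where no gene has a trend. CYR61 and RHOB are the outermost of the labelled genes.

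The 3 transcripts CTGF, ANKRD1 and DKK1 had, with CYR61, the smallest p-values among negative slopes. The promoters of CTGF, ANKRD1 and DKK1 each hold a short motif; that of CYR61 was not searched. The stretches shown are the 250 bases before the start of each gene from RefSeq (build GRCh38.p14), read in the direction of the gene, with each GGAATG in capitals; they are CTGF at chr6:131951373-131951622, ANKRD1 at chr10:90921088-90921337 and DKK1 at chr10:52314031-52314280.
CTGF: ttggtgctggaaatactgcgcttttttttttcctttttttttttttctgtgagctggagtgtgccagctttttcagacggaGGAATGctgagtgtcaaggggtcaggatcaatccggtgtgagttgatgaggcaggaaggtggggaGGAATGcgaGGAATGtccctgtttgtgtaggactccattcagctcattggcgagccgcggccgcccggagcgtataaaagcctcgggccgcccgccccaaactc
ANKRD1: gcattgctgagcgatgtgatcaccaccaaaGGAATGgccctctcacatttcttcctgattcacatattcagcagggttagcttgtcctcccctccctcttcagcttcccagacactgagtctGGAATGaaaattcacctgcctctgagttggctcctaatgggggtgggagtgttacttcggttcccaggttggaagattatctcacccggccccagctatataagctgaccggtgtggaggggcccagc
DKK1: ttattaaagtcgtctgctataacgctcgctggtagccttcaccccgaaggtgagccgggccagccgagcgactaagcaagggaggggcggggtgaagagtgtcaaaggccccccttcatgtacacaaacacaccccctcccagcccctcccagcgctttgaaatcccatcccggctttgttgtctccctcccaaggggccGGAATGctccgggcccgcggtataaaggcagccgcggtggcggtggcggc
CTGF holds GGAATG at 3 places, ANKRD1 at 2 and DKK1 at 1, searched on both strands. Of 35116 promoters of the same length, 4175 hold the motif at least once (11.9%). The AP-1 motif TGANTCA was found once in the ANKRD1 stretch and in neither CTGF nor DKK1, against 6.57% of all promoters. The CCAAT box was found once in the CTGF stretch, as ATTGG on the strand shown, and is not in capitals there. A match is a description of letters and shows no binding.

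CYR61 encodes a secreted matrix protein that binds integrins. It was at 261 to 315 FPKM in the 6 DMSO libraries, at 99.4, 91.5 and 89.0 FPKM at 100 nM, at 60.4, 61.2 and 67.5 FPKM at 300 nM and at 56.5, 58.8 and 55.1 FPKM at 1000 nM. No library of one dose reached into the range of another, and the level was lower at each higher dose. The slope was -0.70 ± 0.11 (SE), a level at 1000 nM that was 0.614 times the one at 100 nM, with an unadjusted limma p of 0.000123 and an adjusted p of 0.85. Without replicate 1 of 300 nM the slope was -0.71 ± 0.09 with an adjusted limma p of 0.0901, and over the first library type the adjusted p was 1.96e-07.

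CTGF, a relative of CYR61 that acts on matrix and fibrosis, was at 103 to 134 FPKM in DMSO cells, at 41.4, 41.7 and 38.2 FPKM at 100 nM, at 30.4, 27.5 and 30.8 FPKM at 300 nM and at 24.9, 27.1 and 25.3 FPKM at 1000 nM. The 3 doses were separated here too, although the highest library of 1000 nM lay just under the lowest of 300 nM. Its slope of -0.64 ± 0.09 had the smallest p of all genes (5.36e-05 unadjusted, 0.743 adjusted, limma) and was -0.64 ± 0.08 without replicate 1 of 300 nM.

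ANKRD1 encodes a nuclear ankyrin protein first known from heart muscle. It measured 89.0 to 141 FPKM in DMSO cells, 41.7, 42.1 and 39.7 FPKM at 100 nM, 40.6, 31.2 and 31.3 FPKM at 300 nM and 27.5, 28.5 and 26.7 FPKM at 1000 nM. The high value among the 300 nM libraries is that of replicate 1, the library that stood apart, and it overlaps with the 100 nM range. The slope was -0.57 ± 0.10 with all 9 libraries and -0.57 ± 0.06 without that one.

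DKK1, a secreted inhibitor of WNT signalling, was at 228 to 245 FPKM in DMSO cells, at 112, 106 and 105 FPKM at 100 nM, at 74.2, 78.7 and 86.9 FPKM at 300 nM and at 75.4, 66.9 and 76.9 FPKM at 1000 nM. All 300 and 1000 nM libraries were below those of 100 nM, and the 2 upper doses overlapped. Its slope was -0.55 ± 0.10, and -0.56 ± 0.07 without replicate 1 of 300 nM.

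RHOB, a short-lived GTPase of endosomes, was the one gene called higher with dose, in the settings with library types. The 250 bases before its start (chr2:20446824-20447073, GRCh38.p14, RefSeq) hold no GGAATG and 2 copies of the CCAAT box, shown in capitals on either strand. That motif is present in 32.0% of all promoters of that length and, as given above, in the CTGF stretch too.
RHOB: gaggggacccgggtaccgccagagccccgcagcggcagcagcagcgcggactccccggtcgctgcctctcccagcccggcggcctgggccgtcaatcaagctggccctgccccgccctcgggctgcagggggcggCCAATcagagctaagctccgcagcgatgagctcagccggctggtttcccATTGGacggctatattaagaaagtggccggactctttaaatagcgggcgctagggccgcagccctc
Its level was 3.87 to 8.77 FPKM in DMSO cells, 17.1, 17.2 and 14.7 FPKM at 100 nM, 13.9, 23.7 and 21.3 FPKM at 300 nM and 29.9, 25.0 and 26.4 FPKM at 1000 nM. All 1000 nM libraries were above all others, and the one 300 nM library below the 100 nM range is replicate 1. The slope was 0.71 ± 0.18 with an unadjusted p of 0.00314, and 0.71 ± 0.09 without that library, and a level 1.64 times that at 100 nM was fitted at 1000 nM.

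**Figure D2:**
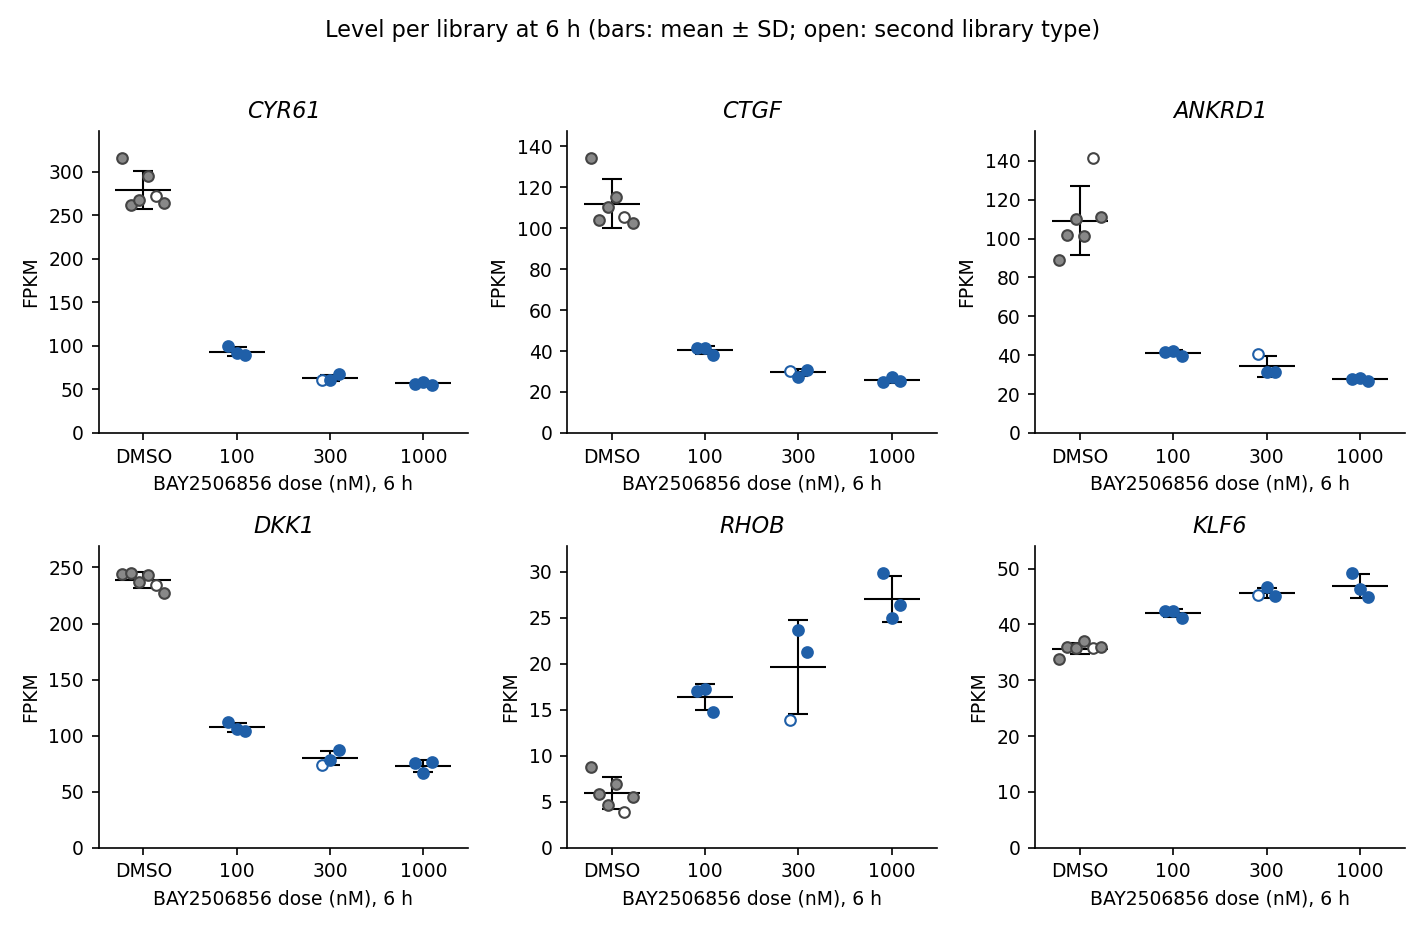
Level in FPKM per library at 6 h (vertical axes, from 0) for DMSO (grey) and 100, 300 and 1000 nM (blue) in 6 genes, with mean ± SD as black bars; open circles are the 2 libraries of the second type. The CYR61 libraries of successive doses do not overlap, and RHOB stands at 25.0 to 29.9 FPKM at 1000 nM, above every other library.

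F3, FRMD6 and BYSL, called with the first library type, had slopes between -0.32 and -0.24. F3, the tissue factor that starts coagulation, had a slope of -0.24 ± 0.08, and FRMD6, a scaffold upstream of the Hippo kinases, one of -0.25 ± 0.08. BYSL, needed to make the small ribosomal subunit, was at 30.2 ± 0.786 FPKM at 100 nM, 24.1 ± 4.44 at 300 nM and 24.1 ± 1.73 at 1000 nM (SD, n = 3 each), and its slope was -0.32 ± 0.14. At 300 nM replicate 1 was at 19.0 FPKM and the other replicates at 26.4 and 27.0.

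The leading genes already differed from DMSO at the lowest dose. At 100 nM against DMSO, limma called 96 of 14253 genes (0.674%), 24 higher (0.168%) and 72 lower (0.505%). CYR61 differed by -1.57 ± 0.07 (adjusted p of 8.73e-08), CTGF by -1.45 ± 0.08, ANKRD1 by -1.38 ± 0.12, DKK1 by -1.15 ± 0.06 and RHOB by 1.43 ± 0.21 on the log2 scale. These values and the slopes share the 100 nM libraries and are set side by side only. EDN1, the vasoconstrictor endothelin 1, was lower by a log2 difference of -1.33 ± 0.14 at 100 nM, and its slope over the doses was -0.38 ± 0.16 with overlapping 100 and 1000 nM libraries. BMF, a BH3-only activator of cell death, was higher by 1.00 ± 0.12 at 100 nM, TSC22D3, a glucocorticoid and FOXO target, by 0.79 ± 0.11 and ELF3, an epithelial ETS factor, by 0.79 ± 0.13. Their slopes were 0.25 ± 0.14, 0.32 ± 0.13 and 0.28 ± 0.15, and all 3 had every 1000 nM library above every 100 nM library. ELF3 was low, with at most 0.866 FPKM at 100 nM, and passed the filter of 1 FPKM only through the upper doses. That filter favours a positive slope, so its slope is given as a description. Without replicates 1 of 300 nM and 5 of DMSO, the libraries of the second type, the comparison 100 nM minus DMSO at 6 h called 257 genes. It called 136 over all 60 libraries (0.954%), 352 with type terms (2.47%) and 543 over the first type (3.81%). Without 1 of the 3 libraries of 100 nM the count was 39, 31 and 40 for replicates 1, 2 and 3.

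Between neighbouring doses, the fitted step of CYR61, CTGF and DKK1 was larger from 100 to 300 nM than from 300 to 1000 nM, but no gene passed the test of unequal steps. The log2 step of CYR61 was -0.56 ± 0.08 up to 300 nM and -0.15 ± 0.08 beyond it. For CTGF the steps were -0.45 ± 0.08 and -0.19 ± 0.08, and for DKK1 -0.43 ± 0.09 and -0.13 ± 0.09. For ANKRD1 and RHOB the division turned on the library that stood apart. With it, ANKRD1 had steps of -0.27 ± 0.11 and -0.30 ± 0.11, and over the first library type -0.39 ± 0.07 and -0.18 ± 0.07. RHOB had 0.23 ± 0.18 and 0.48 ± 0.18 with it, and 0.45 ± 0.14 and 0.26 ± 0.14 over the first type. limma called 0 genes for either step (0%) or for a departure of the 300 nM mean from the straight line (0%) in the 9 libraries. An unadjusted p under 0.05 was found for 454 genes in the lower step (3.27%), 598 in the upper step (4.31%) and 777 for the departure (5.6%). For the lower step over the first library type it called 5 genes, all falling (0.036%), against 3 over all 60 libraries (0.0216%) and 4 with type terms (0.0288%). They were CYR61, CTGF, DKK1, ANKRD1 and FST, the activin-binding follistatin. For the upper step it called 0 there as well. The departure from the line was -0.22 ± 0.07 for CYR61 (adjusted limma p of 0.521), so a straight line and one that flattens were not told apart with 3 libraries per dose.

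**Figure D3:**
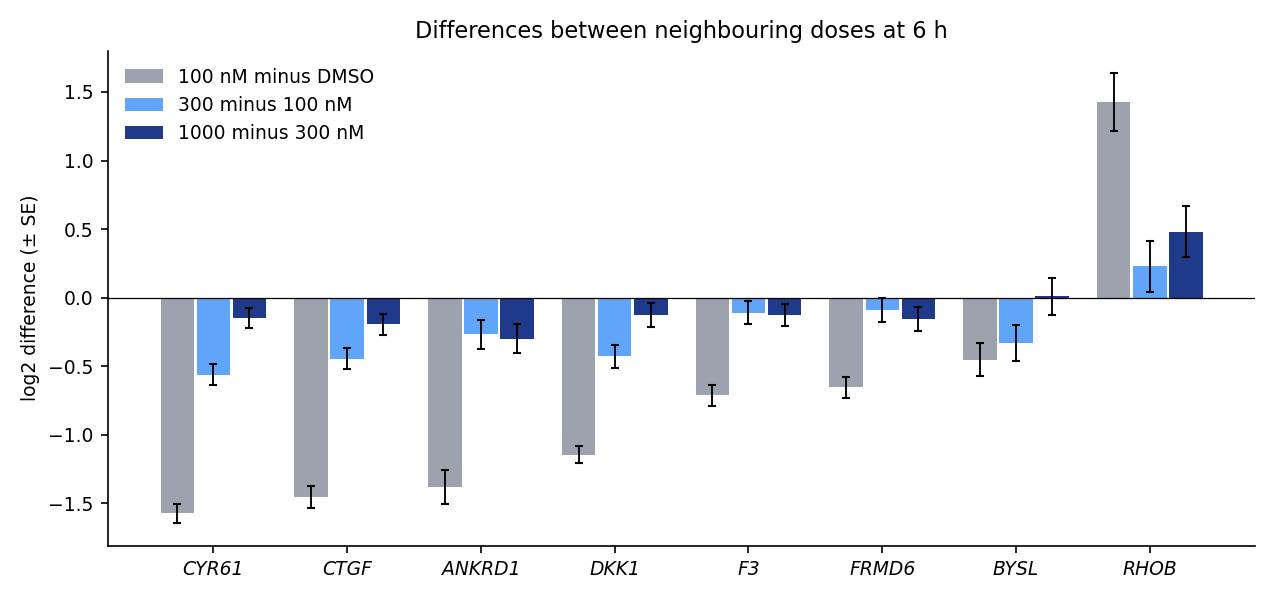
Log2 differences at 6 h (bars, ± SE) between 100 nM and DMSO, 300 and 100 nM, and 1000 and 300 nM for 8 genes called with the first library type. The grey bar is the longest for each gene, as with CYR61 (-1.57, against -0.56 and -0.15).

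Among the gene lists, the YAP1/TAZ targets had the lowest median slope, and the KLF factors and the mitochondrially encoded messages were among the highest. The lists and their members were chosen with earlier results of these data known, so their shares are descriptions and no tests. Over all genes tested, the 3 libraries of 1000 nM lay below the 3 of 100 nM for 871 genes (6.28%) and above them for 698 (5.03%). Of 26 tested YAP1/TAZ targets this held for 13 below (50%) and 0 above, with a median slope of -0.11. None was called in the 9 libraries, and over the first library type 4 fell (CYR61, CTGF, ANKRD1 and F3) and 0 rose. AMOTL2, an angiomotin that holds YAP1 at junctions, was at 11.0, 9.86 and 9.47 FPKM at 100 nM, at 4.07, 7.77 and 7.62 FPKM at 300 nM and at 6.66, 7.31 and 7.11 FPKM at 1000 nM. Its lowest library is replicate 1 of 300 nM, and its slope was -0.48 ± 0.26, or -0.49 ± 0.08 without that library. AJUBA, a LIM protein that restrains the LATS kinases, had a slope of -0.24 ± 0.10, and the ligand TGFB2 one of -0.26 ± 0.11. AXL, a receptor kinase on the same list, measured -0.11 ± 0.11. The 6 members with a positive slope reached at most 0.18.

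The KLF list holds zinc finger factors, several of which act in quiescent cells. Of 11 tested, 10 had a positive slope, 6 had every 1000 nM library above every 100 nM library, 0 lay below, and 0 were called in any of these settings; the median slope was 0.14. KLF6 was at 42.4, 42.4 and 41.2 FPKM at 100 nM, at 45.2, 46.6 and 45.1 FPKM at 300 nM and at 49.2, 46.4 and 44.9 FPKM at 1000 nM. The step was seen between 100 nM and the upper doses, which overlap, and the slope was 0.15 ± 0.06. KLF7 had a slope of 0.29 ± 0.12 and KLF3 one of 0.23 ± 0.11. KLF2 was at 7.29, 5.65 and 5.48 FPKM at 100 nM, at 3.52, 8.75 and 7.68 FPKM at 300 nM and at 10.1, 8.87 and 9.90 FPKM at 1000 nM. Its slope of 0.62 ± 0.29 had the lowest library in replicate 1 of 300 nM, and the DMSO libraries spread over 1.92 to 15.0 FPKM.

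Genes of the FOXO and quiescence list had a median slope of 0.08, with 7 of 21 tested lying higher without overlap (33.3%) and 0 lower. CCNG2, an unusual cyclin of resting cells, was at 4.97, 4.71 and 5.06 FPKM at 100 nM, at 6.25, 5.24 and 5.89 FPKM at 300 nM and at 6.71, 6.09 and 5.62 FPKM at 1000 nM. Every library of the upper doses was above those of 100 nM, and the slope was 0.29 ± 0.10. FOXO4 itself had a slope of 0.32 ± 0.12 and TOB1, an antiproliferative adaptor of the mRNA tail-shortening complex, one of 0.23 ± 0.08. DDIT4, an inhibitor of mTORC1, measured 0.21 ± 0.21, or 0.20 ± 0.06 without replicate 1 of 300 nM. That library was at 22.9 FPKM and the other replicates at 42.6 and 38.7.

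Genes of growth had small negative slopes. All 32 tested genes of ribosome biogenesis and MYC targets had a negative slope, with a median of -0.06, and 8 (25%) lay lower without overlap and 0 higher. BYSL was the one called over the first library type. MYC was at 26.1 ± 1.42 FPKM at 100 nM, 19.8 ± 3.92 at 300 nM and 21.1 ± 0.71 at 1000 nM (SD, n = 3 each), with a slope of -0.29 ± 0.16. NIP7, a factor of ribosome assembly, had a slope of -0.23 ± 0.09. Of 39 cytosolic ribosomal protein genes 36 had a negative slope, the median was -0.08 and 12 lay lower without overlap (30.8%); RPS20 had -0.17 ± 0.06 and RPS14 -0.16 ± 0.07. The summed level of this list was 8721 to 9138.5 FPKM at 100 nM, 7514 to 9199 at 300 nM and 8321 to 8588.5 at 1000 nM, and the lowest of the 9 was replicate 1 of 300 nM. Without that library the median slopes of the 2 lists were -0.06 and -0.07. The lists differed against DMSO: at 100 nM the median log2 difference was -0.23 for ribosome biogenesis and MYC targets and 0.08 for the ribosomal proteins. In the DMSO libraries of 6 h the ribosomal proteins summed to 7630 to 9567 FPKM, a range that holds the 1000 nM sums.

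Secreted factors included several of the low slopes. Of 20 tested, 6 lay lower without overlap (30%) and 1 higher (5%), and the median was -0.04. THBS1, a large matrix glycoprotein, was at 137, 136 and 134 FPKM at 100 nM, at 118, 121 and 121 FPKM at 300 nM and at 110, 119 and 119 FPKM at 1000 nM. The 100 nM libraries were above all others, and the slope was -0.22 ± 0.06. FST was at 7.66 ± 0.55 FPKM at 100 nM, 5.77 ± 0.38 at 300 nM and 5.97 ± 0.18 at 1000 nM (SD, n = 3 each), with a slope of -0.32 ± 0.12.

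The SRF/MRTF and actin genes had a median slope of -0.04, with 6 of 26 lower without overlap (23.1%), 0 higher and none at an unadjusted p under 0.05. Of 23 mevalonate and cholesterol genes 4 lay lower (17.4%) and 1 higher (4.35%), and of 11 protein prenylation enzymes 0 lay lower or higher; their medians were -0.05 and 0.05. ICMT, which methylates prenylated proteins, was at 51.7 ± 1.16 FPKM at 100 nM, 50.7 ± 3.03 at 300 nM and 50.2 ± 2.13 at 1000 nM, and PGGT1B, the catalytic subunit of the type I enzyme that adds geranylgeranyl groups, at 1.49 ± 0.21, 1.85 ± 0.44 and 1.62 ± 0.15 FPKM (SD, n = 3 each). The 43 tested genes of G1 and S phase had a median slope of -0.02 and the 40 of mitosis one of 0.03. For the 13 messages encoded in mitochondria the median was 0.15, above that of the KLF list, with 12 positive and 0 separated. They summed to 13085 to 16331 FPKM at 100 nM, 15683 to 18124 at 300 nM and 13559 to 18098 at 1000 nM. The other lists with at least 6 tested genes had medians between -0.06 and 0.10.

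**Figure D4:**
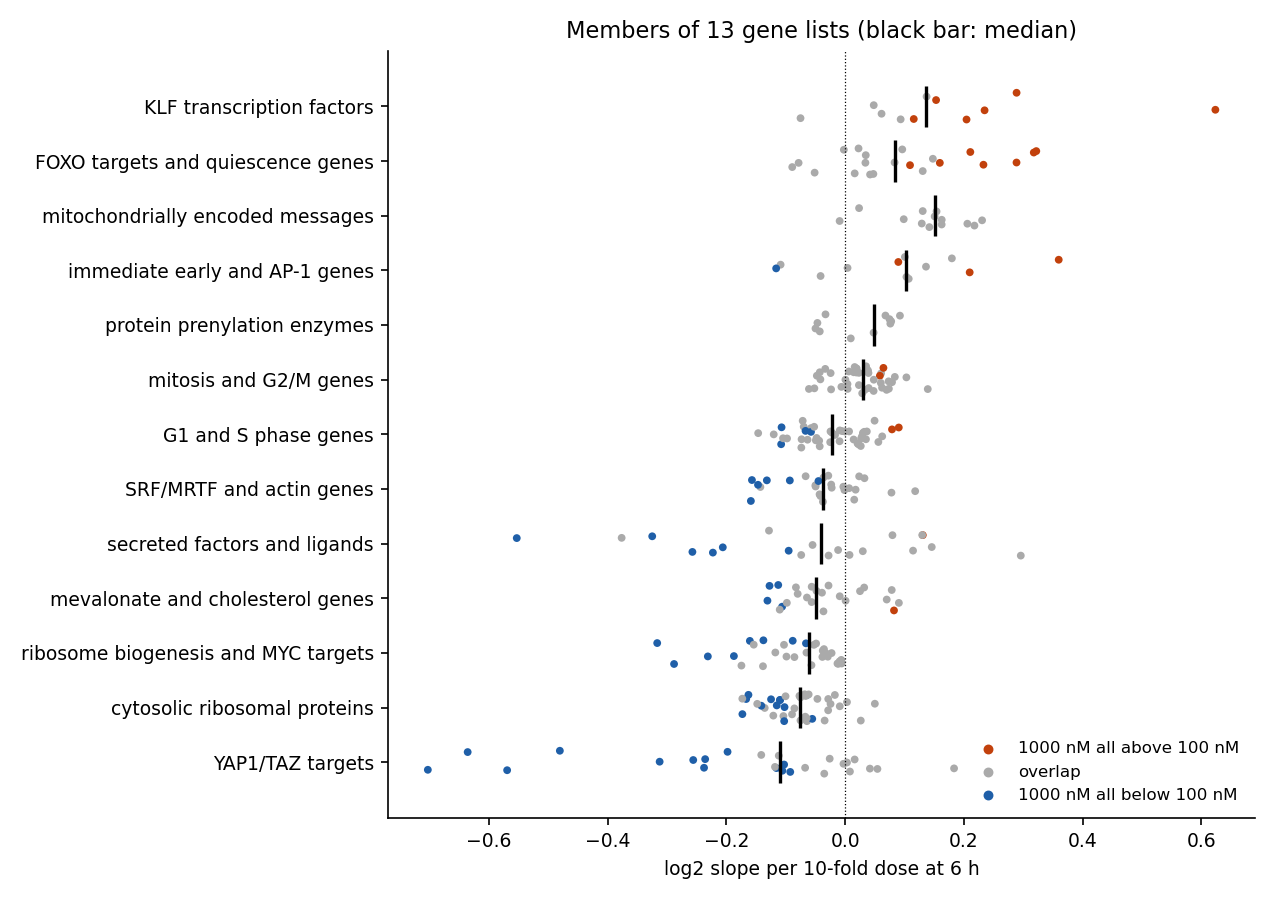
Slope per 10-fold dose at 6 h (log2, horizontal axis) of each tested member of 13 gene lists, 1 list per line, with the median as a black bar. Orange and blue points are genes whose 1000 nM libraries all lay above or all below those of 100 nM; the YAP1/TAZ list reaches -0.70 (CYR61), and the KLF list reaches 0.62 (KLF2).

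The smallest p-values outside the genes above belonged largely to pseudogenes and low transcripts. After CTGF, CYR61, ANKRD1 and DKK1, the negative slopes went on with RAC1P5 (-0.62 ± 0.13), SHFM1P1 (-0.53 ± 0.12), MCFD2P1 (-0.67 ± 0.16) and AC016712.2 (-0.36 ± 0.09). RAC1P5, SHFM1P1, MCFD2P1 and BRD9P2 are named as pseudogenes, whose reads cannot be told apart with certainty from those of their parent genes in single reads. With positive slopes, RHOB was followed by SMPDL3A, a secreted nucleotide phosphodiesterase (0.33 ± 0.09), R3HDM2 (0.39 ± 0.11), BRD9P2 (0.63 ± 0.18), the oxysterol receptor GPR183 (0.51 ± 0.15), RP11-548H3.1 (0.59 ± 0.18), LURAP1L (0.36 ± 0.11) and RP11-355K23B.1 (0.56 ± 0.18). RP11-548H3.1 rested on fewer than 10 reads in most libraries. None of these passed the adjustment in any setting. GPR183 and RP11-548H3.1 stayed under 1 FPKM in all 100 nM libraries and passed the filter only through the upper doses, which favours a positive slope.

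Complete separation of all 3 doses in order was rare, as it also is among libraries without any trend. Whether it was more frequent than that was not tested, so the genes are listed as a description. It held in falling order for 7 of 13870 genes (0.0505%) and in rising order for 5 (0.036%), and these were listed after their values were seen. The falling ones were CYR61, CTGF, DUSP12, EPG5, TP53RK and the pseudogenes RHEBP1 and NPM1P50, and the rising ones RNF144A, SMPDL3A, DCAF5, TOB1 and KIF16B. KIF16B stayed under 1 FPKM in all 100 nM libraries and passed the filter only through the upper doses. The separation could be complete with a small difference. DUSP12, a dual-specificity phosphatase, was at 16.8 ± 0.31 FPKM at 100 nM, 16.0 ± 0.18 at 300 nM and 14.6 ± 0.54 at 1000 nM, and RNF144A, a ubiquitin ligase, at 3.00 ± 0.17, 3.30 ± 0.13 and 3.59 ± 0.11 FPKM (SD, n = 3 each).

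At 3 and 24 h, in libraries that the 6 h slopes did not use, the genes CYR61, CTGF, DKK1, ANKRD1 and RHOB had slopes of the same sign and other sizes. At 3 h, replicate 2 of 1000 nM is of the second library type. At that end of the dose scale 1 library can move a slope. ANKRD1 was at 62.6, 63.8 and 76.8 FPKM at 1000 nM at 3 h, against 66.6 to 73.4 FPKM at 100 nM. At 24 h this type rises with dose. Replicate 2 of 300 nM and replicates 1 and 3 of 1000 nM belong to it, and no library of 100 nM. The 24 h slopes of the 9 libraries, and counts without type terms, mix library type with dose. CYR61 had -0.27 ± 0.07 at 3 h, -0.70 ± 0.11 at 6 h and -2.34 ± 0.34 at 24 h. CTGF had -0.20 ± 0.06, -0.64 ± 0.09 and -2.09 ± 0.24, DKK1 -0.24 ± 0.08, -0.55 ± 0.10 and -2.05 ± 0.25, and ANKRD1 -0.04 ± 0.10, -0.57 ± 0.10 and -1.77 ± 0.29 at these times. RHOB had 0.03 ± 0.10, 0.71 ± 0.18 and 1.11 ± 0.27. At 24 h CYR61 averaged 224 ± 10.2 FPKM in DMSO cells (SD, n = 6) and 64.5 ± 2.16, 16.2 ± 1.79 and 12.2 ± 2.17 FPKM at 100, 300 and 1000 nM (SD, n = 3 each). limma called 0 genes for the slope at 3 h (0%), with 744 (5.4%) at an unadjusted p under 0.05, and 0 at 24 h in the 9 libraries (0%), with 2361 (16.7%). At 24 h it called 800 over all 60 libraries (5.67%), 1253 with type terms (8.88%) and 803 over the first type (5.69%).

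The slope at 6 h minus that at 24 h was 1.64 ± 0.38 for CYR61 (limma adjusted p of 0.165), 1.46 ± 0.26 for CTGF (0.0671), 1.50 ± 0.28 for DKK1 (0.0671) and 1.20 ± 0.33 for ANKRD1 (0.263), none past the threshold with the 18 libraries. There limma called 0 genes (0%) and 1105 (7.52%) had an unadjusted p under 0.05. As the second library type rises with dose at 24 h, the differences in these 18 libraries mix library type with dose as well. Over all 60 libraries limma called 91 genes (0.619%), with type terms 305 (2.07%) and over the first type 339 (2.31%). Over the first type the difference was 1.70 ± 0.11 for CYR61 (limma adjusted p of 4.38e-11) and 1.57 ± 0.10 for DKK1 (2.73e-11). At 24 h 1 library of 1000 nM then remains, which is assumed to vary like the other groups. RHOB differed by -0.40 ± 0.34 between 6 and 24 h and was not called in these libraries or over the first type. Between 6 and 3 h limma called 0 genes (0%), with 408 (2.84%) at an unadjusted p under 0.05, and the difference was -0.43 ± 0.13 for CYR61.

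Genes of G1 and S phase had slopes near 0 at 6 h. Their median was -0.02 at 6 h and -0.77 at 24 h, while that of the YAP1/TAZ targets was -0.11 at 6 h and -0.37 at 24 h. MCM6, a subunit of the replicative helicase, had a slope of -0.11 ± 0.09 at 6 h and of -0.94 ± 0.16 at 24 h, and CDC25A, a phosphatase that opens S phase, of -0.11 ± 0.07 and -1.04 ± 0.16. None of the genes at an unadjusted p under 0.05 at 6 h was called in the 9 libraries. Of the 154 lower ones, 150 were measured at 24 h and 104 had a negative slope there (69.3%, against 51.2% of all genes). Of the 64 higher ones, 61 were measured and 43 had a positive slope (70.5%, against 48.8%). At 3 h the shares were 54.6% (83 of 152, against 50.8%) and 57.6% (34 of 59, against 49.2%). The signs at 3 and 24 h come from the 9 treated libraries of each time, including those of the second library type.

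**Figure D5:**
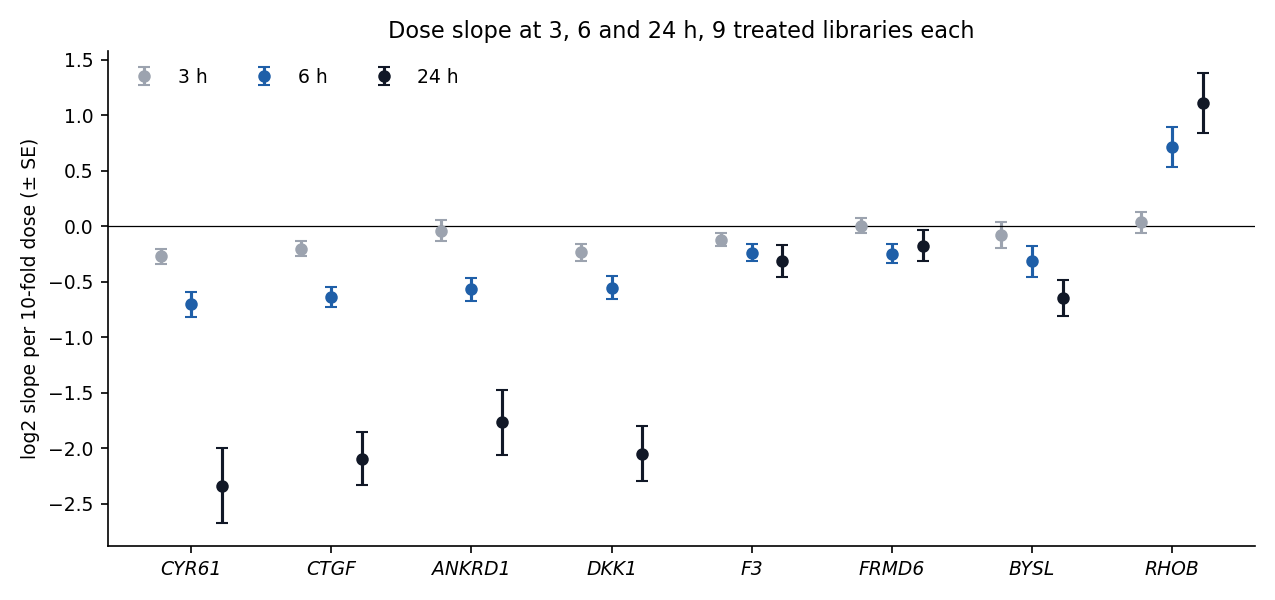
Slope per 10-fold dose (log2, ± SE, vertical axis) at 3, 6 and 24 h in 9 treated libraries each for 8 genes called with the first library type. CYR61, CTGF, ANKRD1 and DKK1 lie between -0.70 and -0.55 at 6 h and between -2.34 and -1.77 at 24 h. The second library type rises with dose at 24 h, and at 3 h replicate 2 of 1000 nM is of that type.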

How the data were processed

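Poly(A) RNA of 60 libraries in 16 groups was measured, stranded and in single reads per the labels' protocols. STAR 2.4.2a, featureCounts 1.4.6-p2, Subread, DESeq2 and hg19 are named, with no roles, per the submitters' processing notes; for the annotation, release and source are not given in the sources used here. Values were deposited as log2(FPKM + 1) for 38342 gene names. The design had assumed FPKM, and the authors' log2 values were therefore turned back into FPKM. Reads were recovered from the steps of the FPKM: 1304094 values, or 100%, came within 0.01 read of a whole number. No molecular identifiers were used, so precision rests on read counts and replicates.

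Genes reaching 1 FPKM in 3 libraries of a comparison were fitted with limma 3.58.1 in R 4.3.3 on log2(FPKM + 0.5), which understates changes of low genes, with trended, robust variances and Benjamini-Hochberg adjustment over all genes tested at 0.05. Tests covered the slopes at 3, 6 and 24 h, their differences, the dose steps, the departure from the line and 100 nM against DMSO. Library types were seen in the values of 14 pseudogenes and MT-ND6. Type terms, the first type alone, and all 60 libraries for results other than the 6 h slope were chosen after seeing the data. The method was tested on simulated data.

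Genes are named by 4 rules: the 8 smallest p in each direction where too few passed, up to 3 members per list, 13 fixed genes, and the extremes called at 100 nM against DMSO. Others, such as genes called in other settings, in complete order or described as further list members, were chosen after their values were seen. The 32 lists and all members were chosen with earlier results of these data known. Some genes and 1 list are not reported here. Alternatives were other pseudocounts, filters, scaling, weights, dose scales, library types, voom and each library left out.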

Additional observations from a re-analysis of the deposited data

Results flagged for a closer look

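Among the 6 DMSO libraries of 6 h, 3 of the 24 named genes checked had 1 library far from the other 5; about 1 group in 20 gives such a library by chance. KLF2 was at 14.96 FPKM in replicate 1, with the next highest library at 6.13 and the lowest at 1.92. RAC1P5 was at 28.19 FPKM in replicate 1, the next at 14.25 and the lowest at 7.08. GPR183 was at 1.079 FPKM in replicate 5, a library of the second type, the next at 0.633 and the lowest at 0.373. These are control libraries and enter none of the 6 h slopes.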

How the results depend on the processing

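For the 6 h slope, other pseudocounts, filters, scaling, dose scales, voom, a type term in the 9 libraries and leaving out each library in turn (0 to 0) kept the count at 0. Array weights called 2 genes, all 60 libraries 3, type terms 6 and the first type only 9. For the step from 100 to 300 nM the counts over all 60 libraries, with type terms and over the first type were 3, 4 and 5. The dose trend at 24 h, 0 in its 9 libraries, called 1030 genes without the second type, and 800, 1253 and 803 in those settings. The dose trend at 6 h minus 24 h called 652 without the second type, and 91, 305 and 339. For 100 nM minus DMSO at 6 h, 96 became 257 without the second type, 352 with type terms and 543 over the first type. Leaving out each library gave 0 to 0 for the departure from the line, both steps and 6 h minus 3 h, and 0 to 1 at 3 h (1 without replicate 3 of 300 nM). It gave 0 to 1065 at 24 h, with 1065 without replicate 2 of 1000 nM and 51 without replicate 2 of 300 nM, 0 to 53 for 6 h minus 24 h (53 without replicate 2 of 1000 nM at 24 h), and 31 to 142 for 100 nM against DMSO. The cause was not tested. Of 1448 values of 64 genes, 1427 kept direction and side of the threshold, 20 passed it newly and 1 reversed: the PGGT1B slope at 6 h ran between -0.017, without replicate 2 of 100 nM, and 0.163 as single libraries were left out. As 0 genes were called in the main setting, keeping the side means staying uncalled. The settings share most of their treated libraries, and many of the genes were chosen by these slopes, so the tally is a description. No paired analysis was possible because the titles number the libraries 1 to 60 and groups share no replicate number. Depth (7.34 to 48.8 M reads) and 3 libraries per dose limit what could be detected.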
